A study of Mus musculus with 6 samples.

Results

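The sequences described here are 5′ fragments of a serine tRNA, the type encoded by the gene n-TSgct5, in mouse heart. They were chosen as the sequences of class tRF_5 (fragments from the 5′ end of tRNAs) of 35 nt or less that share the first 8 nt of tRF_5_47, which gave 16 members among 554 tRF_5 sequences and 1336 sequences in all. The family counts as selected on the control and knockout counts, since 3 forms named in its choice, tRF_5_47, tRF_5_60 and tRF_5_76, are the members that edgeR called higher in the knockout, and the divide of 23 nt between short and long forms was set with those counts in view. Differences between control and knockout hearts are therefore given as descriptions, without p-values. There were 9 members of 23 nt or shorter and 7 of 24 to 35 nt.

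Small RNA was sequenced from hearts of 3 control mice, whose Elac2 alleles carry loxP sites (L/L) without cre and which the labels also name Elac2 +/+, and of 3 knockout mice (L/L, cre; Elac2 -/-). The cre transgene is driven by the muscle creatine kinase promoter, so deletion is directed to muscle cells, while the RNA came from crude hearts that also hold other cells. All 6 mice had a C57BL/6 background, and both groups carry the loxP sites. The labels give no ages. Each mouse gave 1 library, and the total count over all tRNA fragments was 235046 to 773252 per control library and 45354 to 61712 per knockout library. Elac2 mRNA was not analysed here, so the genotype labels were not checked against the deleted gene. Fewer cells of a type and less RNA per cell cannot be told apart in these samples.

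ELAC2 is the RNase Z that removes the 3′ trailer of nuclear and mitochondrial precursor tRNAs, and CCA is added to the 3′ end afterwards. The 5′ end of a tRNA is made by another enzyme, RNase P. Serine tRNAs of the GCT anticodon decode AGC and AGT codons, and like all serine tRNAs they carry a long variable arm. A 5′ fragment starts at the first base of the mature tRNA, and its length gives where the sequence ends: first in the D arm, further on in the anticodon arm. Whether each such end was the site of a cut was not tested.

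The longest sequence with this start, tRF_5_539 of 52 nt, matched 1 place among GENCODE's transcripts on GRCm38, which is also named mm10, antisense to the single exon of the unclassified transcript Gm48356. That place was the RefSeq tRNA gene n-TSgct5 on the minus strand of chromosome 13, from 22050686 to 22050767. RefSeq lists 8 genes of the n-TSgct series, and only n-TSgct5 was read here, so the match does not show which copy a fragment came from. The 82-nt gene is printed to show where each form ends, with the anticodon, bases 34 to 36, in capitals.
n-TSgct5: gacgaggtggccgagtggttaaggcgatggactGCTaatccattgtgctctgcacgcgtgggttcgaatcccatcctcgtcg

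Of the 16 members, 14 equalled the start of this gene and 2 differed from it by 1 base. Counted from 1 at the 5′ end, bases 10 to 12 of the gene pair with bases 23 to 25, which closes a D loop of bases 13 to 22. The forms below carry nearly all of the counts and show the ladder; capitals mark the bases added beyond the shortest form.
tRF_5_5: gacgaggtggccgagt
tRF_5_31: gacgaggtggccgagtGG
tRF_5_47: gacgaggtggccgagtGGT
tRF_5_60: gacgaggtggccgagtGGTT
tRF_5_76: gacgaggtggccgagtGGTTA
tRF_5_86: gacgaggtggccgagtGGTTAA
tRF_5_102: gacgaggtggccgagtGGTTAAG
tRF_5_118: gacgaggtggccgagtGGTTAAGG
The forms from 16 to 22 nt end inside the D loop, tRF_5_102 ends at the first base of the closing strand of the D stem, and tRF_5_118 at its second base. In the 2 variants the capital marks the base that differs, G23A in both.
tRF_5_101: gacgaggtggccgagtggttaaA
tRF_5_117: gacgaggtggccgagtggttaaAg
The 23-nt tRF_5_101 had 0, 1 and 4 counts in the controls and 1, 6 and 2 in the knockouts, and tRF_5_117 had 1 count in all. Together they held 15 counts, or 1.02% of the 1471 member counts over the 6 libraries. Because the forms are nested and share their source, they are not independent of each other.

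The length ladder had 1 dominant rung at 18 nt in every library. A second, broader group lay at 22 to 24 nt, but it did not hold the second largest length in every library. In control replicate 1 the 16-nt form came second, at 26.1%, and in knockout replicate 3 the 20-nt form, at 8.62%. The 18-nt form tRF_5_31 took 39.1%, 37.8% and 44.0% of the member counts in the controls and 59.9%, 60.1% and 64.0% in the knockouts. Its share was thus higher in each knockout library than in each control, at 40.3% ± 3.27 against 61.3% ± 2.33 (SD, n = 3). The 24-nt forms, nearly all tRF_5_118, went the other way: they took 13.0%, 22.97% and 24.8% in the controls and 4.84%, 6.07% and 4.0% in the knockouts. In control replicates 2 and 3 more than 20% of the family ended at 24 nt, and in no knockout library did more than 6.07%. Between these rungs, forms of 19 to 21 nt took 2.90%, 6.76% and 4.28% of the control counts and 13.5%, 8.63% and 15.7% of the knockout counts, again without overlap. The 22- and 23-nt forms together showed no such separation, at 14.0% ± 5.45 in control and 16.6% ± 3.79 in knockout hearts (SD, n = 3).

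The lower end of the ladder did not follow the 18-nt rung. The 16-nt form tRF_5_5 had 18, 10 and 32 counts in controls and 7, 20 and 4 in knockouts, and the groups overlapped. As a share of the family it was 26.1%, 6.76% and 9.79% in controls and 2.42%, 6.39% and 1.23% in knockouts. These shares lay apart by less than 1 percentage point between control replicate 2 and knockout replicate 2. The 17-nt form tRF_5_18, which lies between the 16- and 18-nt forms, had 1 count in 1 of the 6 libraries, against 91 counts at 16 nt and 796 at 18 nt. Other 5′ fragments did occur at that length, with 152 counts over 10 sequences.

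Beyond 24 nt the family was nearly empty. The 25-nt form tRF_5_137 had 1, 3 and 1 counts in controls and 0 in each knockout library, where a count of 0 allows up to 3 counts. The 28-nt tRF_5_192 had 1 count in a control library. The 29-nt tRF_5_216 had 0, 6 and 5 control counts and 0, 2 and 1 knockout counts. The 32-nt tRF_5_314, with 5, 0 and 1 counts against 0, 0 and 6, and the 33-nt tRF_5_344, with 0, 0 and 4 against 0, 0 and 1, reach into the anticodon loop but end before the anticodon. Forms of 25 nt or more took 10.1%, 6.08% and 3.36% of member counts in the controls and 0%, 0.64% and 2.46% in the knockouts. In raw counts they had 7, 9 and 11 in the controls and 0, 2 and 8 in the knockouts. These counts are too low to order the groups form by form. The family was listed with no sequence at 26, 27, 30, 31, 34 or 35 nt, whereas the other 414 tRF_5 sequences of 35 nt or less had 814543 counts at 31 nt, their most frequent length.

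The balance of short against long forms shifted toward short forms in every knockout library. Members of 23 nt or shorter had 53, 105 and 235 counts in the controls and 275, 292 and 304 in the knockouts. Members of 24 to 35 nt had 16, 43 and 92 counts in the controls and 14, 21 and 21 in the knockouts. The short share was 76.8% (95% exact binomial interval 65.1 to 86.1), 70.9% (62.9 to 78.1) and 71.9% (66.7 to 76.7) in the control libraries. In the knockout libraries it was 95.2% (92.0 to 97.3), 93.3% (89.9 to 95.8) and 93.5% (90.3 to 95.96). The intervals cover counting error only. The members and the divide were chosen with these counts in view, so no test is read from the intervals. The group means were 73.2% ± 3.15 and 94.0% ± 1.01 (SD, n = 3), a difference of 20.8 percentage points with the divide at 23 nt. There were 2.77 ± 0.474 short counts per long count in control and 16.01 ± 3.16 in knockout hearts (SD, n = 3), a 5.78-fold higher mean. This balance is a ratio within a library and does not depend on how libraries are scaled to each other.

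The size of the shift depended on which side of the divide the 24-nt forms were counted. The 23-nt forms had 4, 14 and 24 control counts and 20, 27 and 14 knockout counts, and the 24-nt forms 9, 34 and 81 against 14, 19 and 13. When the 24-nt forms were counted as short, the short share was 93.5% in control and 99.0% in knockout hearts, a difference of 5.50 percentage points. The log2 ratio of short to long counts, which differed by 2.50 with the divide at 23 nt, then differed by 3.21, from 3.91 in control to 7.12 in knockout hearts. That knockout mean rests on long counts of 0, 2 and 8, and for the count of 0 it was set by the added 0.5 counts. The count of the 18-nt form per 24-nt count was 3, 1.65 and 1.78 in controls and 12.4, 9.89 and 16 in knockouts. Leaving out tRF_5_31, which held 796 of the 1471 member counts, gave short shares of 55.0% and 84.4%, so the shift was also present among the other members. The count-weighted mean length was 19.96, 20.8 and 20.4 nt in controls and 19.3, 19.3 and 19.4 nt in knockouts. Without tRF_5_31 these mean lengths overlapped between the groups, with a difference of −0.55 nt against −1.06 nt for all members. Forms that end within the D loop made up 65.7% ± 4.87 of the family in control and 87.4% ± 2.40 in knockout hearts (SD, n = 3).

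In raw counts the family did not share the lower totals of the knockout libraries. Member counts were 69, 148 and 327 in the controls and 289, 313 and 325 in the knockouts, where control replicate 3 was as high as the knockouts. This was not particular to the family, since the short tRF_5 sequences outside it did not share the lower totals either. Those short sequences had 348, 112 and 221 counts in controls and 419, 638 and 509 in knockouts, without overlap. Counts of all tRF_5 sequences of 35 nt or less were 0.122 times as high in knockout as in control libraries. The members were 0.0316% (95% exact binomial interval 0.0246 to 0.0400), 0.0278% (0.0235 to 0.0326) and 0.0990% (0.0886 to 0.110) of those counts in controls. In knockouts they were 0.664% (0.590 to 0.745), 0.911% (0.813 to 1.02) and 0.602% (0.538 to 0.671), and the 2 groups did not overlap. The mean share was 13.7-fold higher in knockout hearts, and 24.4-fold without control replicate 3. The 18-nt form ranked 70th, 56th and 40th among tRF_5 sequences of 35 nt or less in the controls and 18th, 15th and 14th in the knockouts.

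To set single forms side by side, counts were expressed as CPM, relative to the library size after TMM scaling, and fitted with edgeR over all sequences that passed its filter. The filter passed 8 of the 16 members, and 5 of these reached its limit in knockout libraries alone, so they had to be higher there as a share of the library total. The 8 members that did not pass had 1 to 14 counts each over all libraries. Of the 8 tested members, 3 were called higher in the knockout (edgeR quasi-likelihood test, Benjamini-Hochberg adjusted p under 0.05), as were 15.7% of all 254 tested sequences. By edgeR 0 of the 8 were called lower, against 16.9% of all tested. With libraries scaled by their totals alone, 6 of the 8 were called higher, as were 40.9% of all tested, and 0 lower, against 2.76%. DESeq2 called 1 member higher, tRF_5_60, and 5.45% of the 532 sequences to which it gave an adjusted p. Limma-voom called 3 of the 8 higher, and 15.7% of all tested. Nothing is read from these counts, or from the median and overlaps that follow, since the same contrast entered the choice of the family. The filter also favoured members that were high in the knockout, so these values were partly fixed in advance. The median log2 fold change was 1.74 over the tested members and 0.06 over all tested sequences. In CPM the groups did not overlap in 5 of the 8, where they did not in 43.7% of all tested sequences. All 5 lay higher in the knockout, as did 25.2% of all tested, and 0 lower, against 18.5%. In raw counts 4 of the 8 lay higher in each knockout than in each control library, against 17.3% of all tested, and 0 lower, against 26.4%.

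The 18-nt tRF_5_31 had 27, 56 and 144 counts in controls and 173, 188 and 208 in knockouts. Each knockout library lay above each control, but control replicate 3 had over 5 times the count of control replicate 1. In CPM the form was at 469 ± 435 in control and 1605 ± 273 in knockout hearts (SD, n = 3). Its log2 fold change of 1.78 ± 0.73 (SE) was not called, although it was in 6 of 14 alternative fits, among them that without control replicate 3, at 2.78.

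The forms 1 to 3 nt longer than tRF_5_31 were rarer. All 3 were named in the choice of the family and reached the filter's limit in knockout libraries alone. Nothing is therefore read from how often their calls held. The 19-nt tRF_5_47 had 2, 5 and 6 counts in controls and 11, 13 and 13 in knockouts. Its log2 fold change was 2.02 ± 0.73 (SE), and 11 of 14 alternatives lost the call. The 20-nt tRF_5_60 had 0, 1 and 7 control counts and 18, 7 and 28 knockout counts, so that control replicate 3 and knockout replicate 2 had the same raw count. In CPM it was at 17.5 ± 25.2 and 149 ± 94.2 (SD, n = 3), which gave a log2 fold change of 3.15 ± 0.99 (SE). Its call was lost in 1 of 13 alternatives, without knockout replicate 3, and the log2 fold change was 5.42 without control replicate 3. The 21-nt tRF_5_76 had 0, 4 and 1 control counts and 10, 7 and 10 knockout counts, without overlap. Its log2 fold change was 2.88 ± 0.88 (SE), and 6 of 13 alternatives lost the call, among them those without control replicate 3 or any 1 knockout replicate; it was 4.42 without control replicate 2.

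The 22-nt tRF_5_86 had 2, 15 and 21 counts in controls and 36, 30 and 26 in knockouts, with each knockout library higher. It was at 79.5 ± 66.1 and 256 ± 22.04 CPM (SD, n = 3), with a log2 fold change of 1.71 ± 0.83 (SE) that was not called. It was called with upper-quartile scaling, at 2.17, and with library totals alone, at 4.36, and was 1.12 without control replicate 1. The 23-nt tRF_5_102 had 4, 13 and 20 control counts against 19, 21 and 12, which overlap, and a log2 fold change of 0.95 ± 0.77 (SE). That value was not called; it was called with library totals alone, at 3.52, and was 0.43 and 1.59 without control replicate 1 or 3. The 24-nt tRF_5_118 had 9, 34 and 81 control counts against 14, 19 and 12. It was at 260 ± 254 and 127 ± 35.4 CPM (SD, n = 3), so that the controls lay on both sides of the knockouts. Its log2 fold change of −1.03 ± 0.84 (SE) was not called; it was 0.03 without control replicate 3, −1.57 and called without control replicate 1, and 1.56 with library totals alone. The 16-nt tRF_5_5 had a log2 fold change of −0.39 ± 0.79 (SE), whose sign also turned with the scaling and with single libraries.

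Summed over forms, the log2 fold change was 1.61 ± 0.70 (SE) for the short members and −0.96 ± 0.80 (SE) for the long members. Scaling by library totals alone moved the median of all tested sequences from 0.06 to 2.15, and gave 4.07 for the short and 1.54 for the long sum. The sign of the long sum therefore depends on the scaling. The gap between the sums was 2.57, and 2.45 to 2.64 over all alternative fits and with any library left out. Library scaling nearly cancels in this gap, so its steadiness over scalings was largely fixed in advance and nothing is read from it. Each sum by itself moved with single libraries: without control replicate 3 they were 2.47 and −0.08, and without control replicate 1 they were 1.14 and −1.47. Without knockout replicate 1 the long sum was −0.43. The authors' deposited table gives log2 fold changes of 3.21 for tRF_5_60, 2.78 for tRF_5_76, 1.96 for tRF_5_47, 1.79 for tRF_5_31 and −1.03 for tRF_5_118.

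A shift toward short forms was also seen in the summed tRF_5 sequences outside the family, from another starting point, though not in every group that shared a start. The other tRF_5 sequences of 35 nt or less were almost all long: those of 23 nt or shorter made up 0.159%, 0.0210% and 0.0670% of their counts in controls and 0.969%, 1.87% and 0.948% in knockouts. Their short counts per long count were 0.000826 ± 0.000707 in control and 0.0128 ± 0.00544 in knockout hearts (SD, n = 3). That mean was 15.5-fold higher in the knockout, against 5.78-fold for the family. The family took 13.2%, 48.4% and 51.5% of all short tRF_5 counts in controls and 39.6%, 31.4% and 37.4% in knockouts. These shares overlap, so among short 5′ fragments the family's part did not separate the groups. At 18 nt the family held 796 counts and the 16 other sequences of that length 619. Those other sequences together had 51, 32 and 80 counts in controls and 130, 174 and 152 in knockouts. Each knockout library was thus higher there too, as for tRF_5_31. Of 7 other groups that share their first 8 nt and have at least 5 short and 5 long sequences, 2 had a short share higher in each knockout than in each control library. The group starting GCCCGGAT went from 27.6% ± 15.0 to 63.1% ± 11.1, and the group starting GTTTCCGT from 0.298% ± 0.257 to 7.89% ± 4.38 (SD, n = 3). In the rest control and knockout overlapped, also in those nearest the family in control short share. The group starting GGTAGCGT went from 70.9% ± 20.4 to 70.0% ± 3.67, and that starting GTCAGGAT from 56.9% ± 20.6 to 48.0% ± 22.8 (SD, n = 3). The difference between the family and these groups was not tested.

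The 4 other 18-nt fragments with the same D-arm letters did not show the counts of tRF_5_31, although the other 18-nt fragments as a whole were higher in each knockout library. There were 4 tRF_5 sequences of 18 nt outside the family that share its bases 9 to 18, a set chosen after the values were seen. The nearest is printed beside tRF_5_31, with the first 8 bases, where the sequences differ, in capitals.
tRF_5_31: GACGAGGTggccgagtgg
tRF_5_44: GTCACGGTggccgagtgg
The fragment tRF_5_44, which differs at 3 bases, had 14, 16 and 15 counts in controls and 7, 17 and 7 in knockouts. It was at 85.1 ± 22.6 and 88.4 ± 53.5 CPM (SD, n = 3), with a log2 fold change of 0.06 ± 0.70 (SE). The other 3, tRF_5_32, tRF_5_39 and tRF_5_42, had 0 to 6 counts per library. The difference between tRF_5_31 and tRF_5_44 was not tested.

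Longer fragments with the same start, just outside the limit of 35 nt, were few. The 36-nt tRF_5_432, whose last 3 bases are the anticodon, had 0, 10 and 5 counts in controls and 2, 0 and 0 in knockouts. The 37-nt tRF_5_457 had 0, 3 and 2 against 0, 0 and 1. All 5 sequences of 36 to 52 nt together had 23 control counts and 3 knockout counts, and they exceed the size selection of the libraries.

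The 3′ side of the same tRNA was also represented. In n-TSgct5 the first 7 bases pair fully with the 3′ strand of the acceptor stem, and 8 CCA-ending fragments carried that strand; all 8 equal the end of the gene followed by CCA. The most abundant by mean CPM over the libraries are printed, with the added CCA in capitals.
tRF_3_186: tcgaatcccatcctcgtcgCCA
tRF_3_73: atcccatcctcgtcgCCA
The 22-nt tRF_3_186 had 25, 6 and 5 counts in controls and 3, 1 and 4 in knockouts, and the 18-nt tRF_3_73 had 29, 2 and 3 against 2, 4 and 2. The next by mean CPM were the 17-nt tRF_3_47, with 7, 0 and 2 against 0, 0 and 2, and the 19-nt tRF_3_105, with 5, 2 and 3 against 0 in each knockout. The 15-nt tRF_3_16 had 1 control count and 5 knockout counts. None of the 8 passed the filter. Summed, they had 73, 11 and 13 control counts and 5, 6 and 14 knockout counts, which overlap, and the control mean of 32.3 rested on control replicate 1, without which it was 12. That library also had the lowest count of 5′ members, so it held 0.945 member counts per CCA-ending count, against 13.5 and 25.2 in the other controls and 57.8, 52.2 and 23.2 in the knockouts. A trailer that directly follows the gene was listed as tRF_1_89.
tRF_1_89: gtctgggtcttttattt
This 17-nt trailer had 1 count, in knockout replicate 1, and 0 in the other libraries.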

How the data were processed

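Per the labels' protocols, RNA of 15 to 35 nt from crude mouse heart was size-selected and read from both ends, with 4 technical replicates per mouse; the labels do not say how these were joined. The submitters' processing notes name cutadapt 1.1.4, Bowtie2 2.2.9, DESeq2 1.16.1 and mm10. The labels also do not say how reads were assigned to nested or near-identical sequences, and a count of a short form is taken as a read that ended there. The authors deposited raw counts per sequence, which were used here. The authors also deposited a normalized signal, which equals the counts over a constant for each library (checked). The authors' deposited table holds log2 fold changes, a Wald score, and p-values.

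Counts of 3 control and 3 knockout libraries were fitted over all sequences with edgeR 4.0.16 (R 4.3.3): quasi-likelihood test, group as the only term, TMM scaling, filterByExpr (minimum count 10), Benjamini-Hochberg threshold 0.05. SE is the absolute log2 fold change over the root of F. Sums of short and of long members replaced the members in the same fit. Shares and ratios used raw counts; log2 ratios added 0.5 counts. Intervals are 95% Clopper-Pearson. A count of 0 allows up to 3 counts. Whether mice came from separate litters is not stated. On simulated data with 280 tested sequences, 28 of 29 log2 changes of 4 and 20 of 37 of 2 were recovered, and 3 of 214 unchanged sequences were called. The simulated libraries shared the same mean profile and dispersion apart from the set changes. The real ones had TMM factors from 0.215 (control replicate 2) to 2.56 (knockout replicate 2), so these rates need not hold for them. Alternatives were other scalings, filters and tools (DESeq2 1.42.0, limma 3.58.1), a replicate block, each library left out, and other divides and member rules.

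Named are every member that passed the filter, the most abundant member at each length, those at the limits, and the 5 CCA-ending fragments with the highest mean CPM. The members and lists were chosen with earlier results of these data known. Tables hold no cell type markers.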

Additional observations from a re-analysis of the deposited data

How the results depend on the processing

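The short share was higher in each knockout than in each control library under every divide and member rule. Leaving a library out could not make these groups overlap. The rules of a shared first 15 nt and of 15 nt or longer gave the main values again. The family and the divide were chosen with these counts in view, so nothing is read from the separation. The difference in short share of 20.8 percentage points was 16.3 with the divide at 20 nt, 5.50 at 24 nt and 4.24 at 26 nt. It was 23.3 with no upper length, 29.4 without tRF_5_31, and 19.7 to 22.6 with a library left out. The log2 ratio of short to long counts differed by 2.50. This difference was 1.06, 1.86, 3.21 and 2.90 with divides at 20, 22, 24 and 26 nt, 2.14 without tRF_5_31, and 2.35 to 2.63 with a library left out. With divides at 24 and 26 nt the knockouts had long counts of 0, 2 and 8, so those values lean on the added 0.5 counts. The share of 5′ counts differed by 0.673 percentage points (0.252 without tRF_5_31), and the mean length by −1.06 nt (−1.66 with no upper length, −0.55 without tRF_5_31). With library totals alone the short sum was 4.07 and the long sum turned to 1.54. With a library left out the short sum ran from 1.14 to 2.47 and the long sum from −1.47 to −0.08. The log2 fold change of tRF_5_5 turned to 0.022 with upper-quartile scaling and 1.87 with library totals, and ran from −1.21 to 0.12 with a knockout library left out (0.11 and 0.12 without knockout replicate 1 or 3); without a control library it did not pass the filter. That of tRF_5_118 turned to 1.56 with library totals and ran from −1.57 to 0.030 with a library left out, turning without control replicate 3. The cause was not tested. Over all sequences 83 were called, and 59 to 91 with a library left out.

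Same-numbered libraries did not all deviate together (correlations −0.05, 0.27 and 0.02). With the replicate number as a block, 66 sequences were called, the short sum was 2.001 and the long sum −0.55; among members the call of tRF_5_47 was lost and tRF_5_31 was called. Member counts of 69 to 327 per library limit what can be said of forms with few counts.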
